A study of Mus musculus with 10 samples.

Results

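The cytosolic ribosomal protein genes were described in cultures recovered from tumour-bearing mice. The cultures are sublines of the 4T1 line, which was derived from a mammary carcinoma of the mouse. Members were all probes of an Illumina mouse whole-genome bead array whose platform symbol begins with Rpl or Rps and a number, or is Rplp0, Rplp1, Rplp2 or Rpsa, without the Rps6k kinases and pseudogene symbols. This gave 96 of 45281 probes (0.212%) and 65 of 19057 genes with a probe of 1 symbol. One of the 65, Rps19bp1, is taken in by its spelling and is no ribosomal protein. The arrays held RNA of 4 sublines from brain metastases (B), 3 from lung metastases (L) and 3 from primary tumours (P), with 1 array per subline. All sublines came from luciferase-tagged 4T1 cells inoculated into female BALB/c mice of 6 to 8 weeks and were passaged 3 to 4 times in culture before RNA was taken. The study describes inoculation under the skin, and the deposited design describes it as orthotopic. The sublines were isolated independently per the study, but the mouse behind each subline is not given in the sources used here, so p-values measure the spread between these cultures.

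Ribosomal proteins, together with ribosomal RNA, make up the large and the small subunit of the ribosome that translates cytosolic mRNA. Their mRNAs are among the most abundant of a growing cell, and in mammals most begin with a C followed by a run of pyrimidines, the terminal oligopyrimidine (TOP) motif, through which mTOR signalling and the RNA-binding protein Larp1 govern their translation. A few members have a paralog with a related sequence, such as Rpl22 and Rpl22l1, and the proteins of this pair are known to regulate each other's expression.

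Start regions are shown for the called genes Rpl38, Rpl22 and Rps19, and for 3 uncalled paralogs and Rps6. Those of Rpl28 and Rplp2 are examples that hold the letters CTTTC. Rpl29 was not matched. Each run holds 15 bases before and 15 after the annotated start in RefSeq (GRCm38.p6), on the strand of the gene, and capitals mark the letters CTTTC.
Rpl38, chr11:114668565-114668594, plus strand: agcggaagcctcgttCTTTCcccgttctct
Rpl28, chr7:4792950-4792979, plus strand: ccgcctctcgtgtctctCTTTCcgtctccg
Rplp2, chr7:141447636-141447665, plus strand: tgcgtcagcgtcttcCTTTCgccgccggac
Rpl22, chr4:152325711-152325740, plus strand: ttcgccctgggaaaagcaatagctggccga
Rps19, chr7:24884577-24884606, plus strand: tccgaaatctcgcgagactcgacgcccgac
Rpl22l1, chr3:28805493-28805522, plus strand: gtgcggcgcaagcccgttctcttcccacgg
Rps27l, chr9:66946071-66946100, plus strand: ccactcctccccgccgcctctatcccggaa
Rpl7l1, chr17:46782642-46782671, minus strand: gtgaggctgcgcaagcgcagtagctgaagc
Rps6, chr4:86857353-86857382, minus strand: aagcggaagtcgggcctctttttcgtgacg
In Rpl38 and Rplp2 the letters began at the annotated start itself. A run without CTTTC can still hold a C followed by pyrimidines at its annotated start, as that of Rps6 does. The Rpl22 and Rps27l runs are each 1 of 2 annotated starts and the Rps19 run is 1 of 3, and none of the starts of these genes held CTTTC. Of the 65 genes, 54 matched the table, with 64 starts. CTTTC on the gene's strand stood in 13 of the 64 windows of 30 bases (20.3%), against 4.05% of the 32851 windows of all genes, and on the opposite strand in 3.12% against 3.6%. CTTTC is 1 of 7 overlapping pyrimidine motifs that were counted on the gene's strand in 3 windows of 20, 30 and 40 bases, and it and its window were picked after these counts were seen. In the windows of 30 bases, CTTTT stood at 9.38% of the members' starts against 3.15% of all starts, CTTCC at 17.2% against 6.63%, and TCTTT at 15.6% against 3.53%. The shorter CTTT stood at 28.1% against 12%, and the longer CTTTCC at 9.38% against 1.42% and CTCTTTC at 6.25% against 0.408%. The share at the members' starts exceeded that of all starts in 21 of the 21 pairs of motif and window, by 1.87 to 15.3 times. These counts describe letters and show no site in use.

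Of the 96 probes, 77 were detected on all 10 arrays at a detection p of 0.01 or less, 4 on some arrays and 15 on none. The 81 detected probes covered 57 genes. The 8 genes with no detected probe were Rpl17, Rpl6, Rps23, Rpsa, the paralogs Rpl3l, Rpl39l and Rps4l, and Rps23rg1. Whether Rps23rg1 codes for a ribosomal protein was not looked up. Whether their mRNAs were absent or their probes failed was not tested. Rpl5 and Rpl11, which join the 5S ribosomal RNA in a particle, and Rps27a and Rpl10 had no member probe. The members gave some of the strongest signals of the array. Of the 198 probes with a deposited intensity over 20000 on some array, 38 were members (19.2%). Signals near the top of the scanner range can be compressed, and quantile normalization sets that range alike on all arrays. Summed over all members, the deposited intensities made up 4.85% ± 0.25 of the array total in B (SD, n = 4), 4.83% ± 0.23 in L (SD, n = 3) and 5.13% ± 0.46 in P (SD, n = 3), with ranges that overlapped between all groups.

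The ribosomal protein probes varied little over the sublines. Their median SD over the 10 arrays was 0.145 on the log2 scale, against 0.298 for all detected probes. Within groups the median SD of members was 0.136 in B, 0.101 in L and 0.11 in P, against 0.268, 0.175 and 0.187 for all detected probes of the same groups. The members over 20000 had median within-group SDs of 0.0839 in B, 0.0663 in L and 0.0846 in P, close to those of other genes' probes over 20000 (0.0822 in B, 0.0716 in L and 0.0786 in P). Members at or below 20000 were more variable, with 0.239 in B, 0.172 in L and 0.131 in P. A low spread was seen at bright probes of either kind, and the part of saturation in it was not tested.

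**Figure D1:**
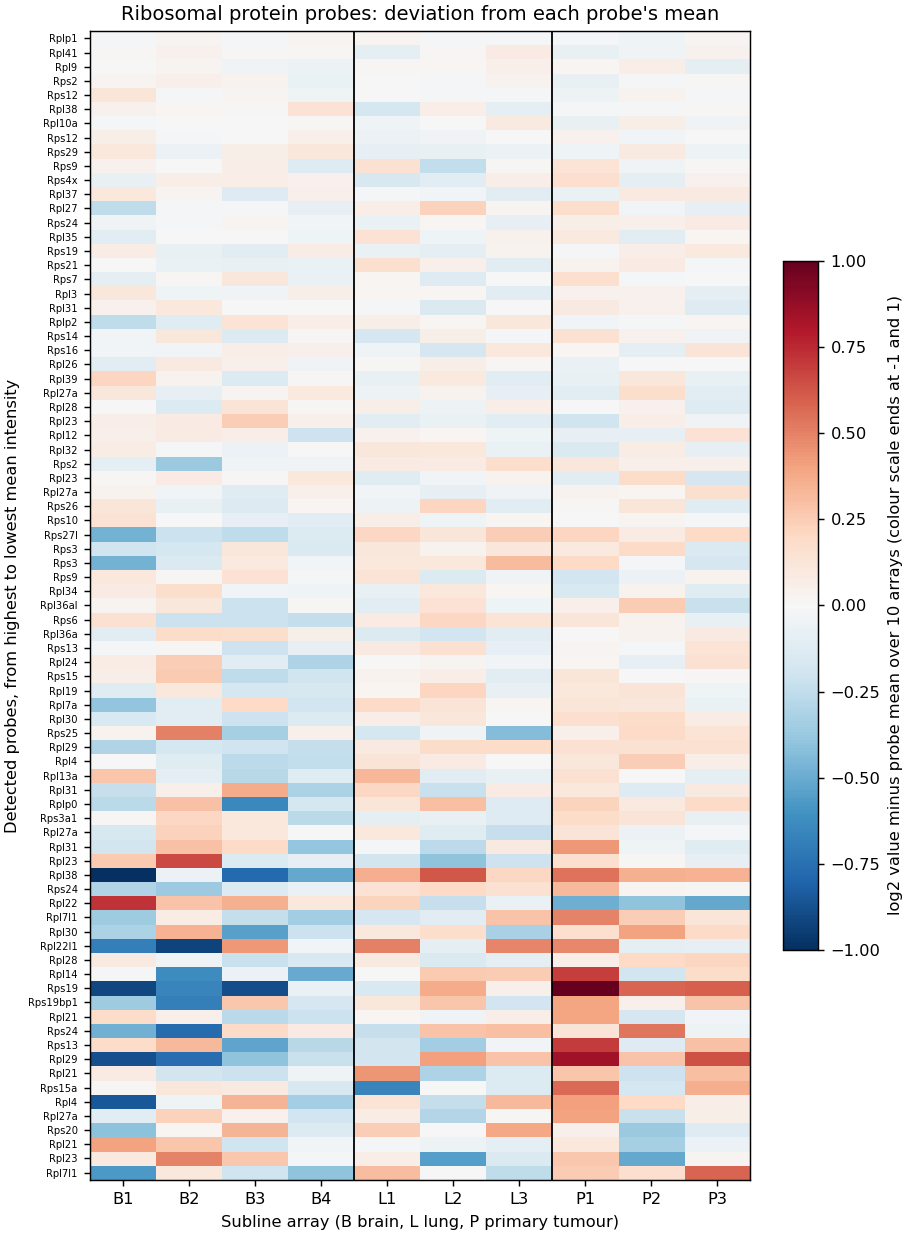
Each row is 1 of the 81 detected ribosomal protein probes, ordered by mean deposited intensity, and each column 1 subline array; colour gives the log2 value minus the probe's mean over 10 arrays, with the scale ending at -1 and 1. Most bright rows are near white, while Rpl38, Rps19 and Rpl29 have a dimmer row that is low on B arrays, and Rpl22 has a row that is high on B arrays.

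Between B and P sublines, Rpl22 was higher in B and 1 probe each of Rps19, Rpl29 and Rpl38 was lower. Differences are B minus P in log2 units from limma on the arrays of the 2 groups, and a probe was called at a Benjamini-Hochberg adjusted p under 0.05 over all probes tested. Of 81 members tested, 4 were called (4.94%), 1 higher and 3 lower, beside 12.3% of all 17230 probes (6.27% higher and 6.02% lower). The members' median difference was -0.06, against -0.01 over all probes, and 54 members were negative and 27 positive. Of the members, 75.3% lay within 0.25 of no difference, against 44.3% of all probes. These shares rest in part on the bright probes: of the 38 members over 20000, 0 were called and 97.4% lay within 0.25, and of other genes' 160 probes over 20000, 3.75% were called. Of the 43 members at or below 20000, 4 were called (9.3%) and 55.8% lay within 0.25. Groups did not overlap for 2 members that were higher and 12 that were lower in B, beside 13.5% and 15.3% of all probes. Members at or below 20000 had a median difference of -0.16 and those above it -0.00494. The median moved to -0.18 with median scaling in place of quantile normalization. All 4 calls were lost without P1 (0 called, lowest adjusted p in limma 0.0528, 6 at an unadjusted p under 0.05), and the share called over all probes was then 2.62%.

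Rpl22, a large-subunit protein that binds RNA and is not essential for translation in mice, was the only member called higher in B. Its normalized log2 level was 11.36, 10.92, 10.99 and 10.74 in B1 to B4, 10.86, 10.41 and 10.57 in L1 to L3, and 10.15, 10.24 and 10.12 in P1 to P3. Every B subline was above every P subline, and the L sublines lay between the means of the other groups. The B minus P difference was 0.83 (SE 0.174, 1.78-fold, adjusted p = 0.0188 in limma). It was 0.39 for B minus L (adjusted p = 0.247 in limma) and 0.44 for L minus P (adjusted p = 0.257 in limma), neither of which was called. Without normalization between arrays the B minus P difference was 0.70 with an adjusted p of 0.109 in limma, and it was not called without P1, P2 or P3, at adjusted p 0.0814, 0.0568 and 0.0729.

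Its paralog Rpl22l1 had levels of 8.35, 8.11, 9.47 and 9.01 in B1 to B4, 9.54, 8.95 and 9.52 in L1 to L3, and 9.51, 8.94 and 8.96 in P1 to P3. B1 and B2 were below all other sublines, while B3 and B4 lay within the range of the L and P sublines. Rpl22l1 was not called, at -0.40 for B minus P (SE 0.321, adjusted p = 0.438 in limma) and -0.60 for B minus L (SE 0.321, adjusted p = 0.287 in limma).

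Rps19, a small-subunit protein needed for 18S ribosomal RNA maturation and mutated in Diamond-Blackfan anaemia in humans, had 2 detected probes with unlike differences. At the probe of mean intensity 224.4, levels were 6.35, 6.60, 6.37 and 7.19 in B1 to B4, 7.10, 7.63 and 7.31 in L1 to L3, and 8.34, 7.84 and 7.85 in P1 to P3. B and P sublines did not overlap, and B4 lay within the L range. The difference was -1.38 for B minus P (SE 0.237, 2.61-fold, adjusted p = 0.00999 in limma), -0.72 for B minus L (adjusted p = 0.0986 in limma) and -0.66 for L minus P (adjusted p = 0.201 in limma). At the probe of mean intensity 23740, B averaged 14.51 ± 0.098, L 14.48 ± 0.068 and P 14.57 ± 0.059 (SD, n = 4, 3 and 3), and B minus P was -0.06 (SE 0.14).

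Rpl29, a large-subunit protein, was lower in B at its probe of mean intensity 180.6. Levels there were 5.998, 6.11, 6.47 and 6.65 in B1 to B4, 6.69, 7.29 and 7.16 in L1 to L3, and 7.72, 7.16 and 7.51 in P1 to P3, so that each B subline was below each L and P subline. B minus P was -1.16 (SE 0.211, 2.23-fold, adjusted p = 0.0124 in limma) and B minus L -0.73 (SE 0.216, adjusted p = 0.0759 in limma). The call against P was lost without P1 (adjusted p = 0.0636 in limma) and without P3 (0.0518). The other probe, of mean intensity 6718, averaged 12.45 ± 0.054 in B, 12.83 ± 0.058 in L and 12.83 ± 0.002 in P. Its B sublines were also below all others, by 0.38 in both comparisons, with adjusted p = 0.0918 against P and 0.121 against L in limma.

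Rpl38, a large-subunit protein known in mice for its part in the translation of Hox mRNAs, was the member called lower in B in both comparisons, at its probe of mean intensity 1935. Levels were 9.67, 10.70, 9.97 and 10.24 in B1 to B4, 11.12, 11.37 and 10.96 in L1 to L3, and 11.29, 11.10 and 11.10 in P1 to P3. No B subline reached the lowest L or P subline. B minus P was -1.02 (SE 0.234, 2.03-fold, adjusted p = 0.0251 in limma) and B minus L -1.01 (SE 0.241, 2.01-fold, adjusted p = 0.0412 in limma). These comparisons share the B arrays. The second probe, of mean intensity 25210, gave 0.06 for B minus P and 0.12 for B minus L, neither of them called. The call against P was lost without B1, P1, P2 or P3 (adjusted p 0.0538, 0.104, 0.0716 and 0.0759 in limma). With no filter on dim probes neither Rpl38 call held (adjusted p 0.0654 against P and 0.102 against L in limma), and with the replicate block the adjusted p against P was 0.0683.

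The 17 genes with 2 or more detected probes show how far a value depends on the probe. For B minus P the sign differed between probes of the same gene in 7 of 17 genes, and the call differed in 3 (Rpl29, Rpl38 and Rps19). Probe sequences were not used here, and which transcript or related sequence each probe binds was not tested. The probes of Rps12 differed by 0.019, those of Rps3 by 0.01, and those of Rps19 by 1.32. Rpl23, a large-subunit protein that also binds Mdm2, had 0.16, 0.09 and 0.14 at the 3 probes detected on all arrays, none of them called. A further probe, detected on B arrays alone, is above the filter only through them and is not read. Rpl4 was negative at both probes (-0.30 and -0.45) and Rps24 at 3 of 3 (-0.08, -0.34 and -0.45), again without a call.

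**Figure D2:**
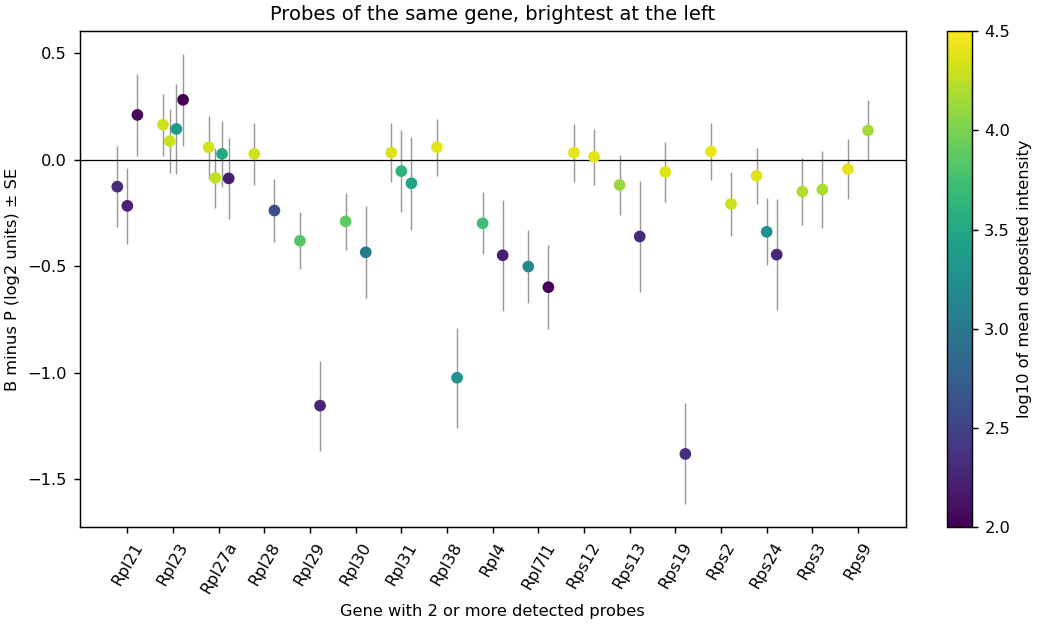
B minus P difference (log2 units, line: SE) of each detected probe in the 17 genes with 2 or more, the brightest probe of a gene at the left and colour giving its mean deposited intensity. The probes of Rpl38 and Rps19 stand over 1 log2 unit apart, while those of Rps12 and Rps3 nearly coincide.

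No paralog passed the test in the main fits. Rps27l, a p53-inducible relative of Rps27, had 13.50, 13.76, 13.72 and 13.84 in B1 to B4, 14.18, 14.09 and 14.21 in L1 to L3, and 14.18, 14.06 and 14.17 in P1 to P3. Its B sublines were below all others, with -0.43 for B minus P (SE 0.148, adjusted p = 0.0845 in limma) and -0.46 for B minus L (SE 0.146, adjusted p = 0.0942 in limma). Rpl7l1 had a B minus P difference of -0.50 at its probe detected on all arrays (adjusted p = 0.0853 in limma). Its other probe was detected on 1 array, of P, and so entered the test only through the group where it was highest. Its -0.60 is not read as support, and was -0.30 without background correction and -0.16 in the authors' processed values. Rpl36al had -0.04, and its parent Rpl36a 0.03. None of the paralog probes was called by limma in the main fits, with Rps27l and Rpl7l1 at an unadjusted p under 0.05. Under alternative processing some were. Rps27l was called lower in B in 5 of 18 alternatives against P and in 4 of 18 against L. The authors' processed values were among them (adjusted p 0.0202 and 0.0219 in limma). The Rpl7l1 probe detected on all arrays was called lower in B than in P in 2 of 18.

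The ribosomal stalk, which recruits elongation factors, did not pass the test in any comparison. Rplp1 averaged 14.92 ± 0.022 in B, 14.91 ± 0.022 in L and 14.90 ± 0.035 in P. Rplp2 had a B minus P difference of -0.04 (SE 0.153). Rplp0 averaged 11.64 ± 0.385 in B, 11.94 ± 0.217 in L and 12.01 ± 0.066 in P, and its difference of -0.37 for B minus P had an SE of 0.214 (adjusted p = 0.282 in limma). Among the other genes named for their role, Rps6, the substrate of the S6 kinases, had -0.16 for B minus P and -0.27 for B minus L. Rps3 had -0.15 and -0.14 for B minus P at its 2 probes, Rpl13a -0.08 and Rps26 -0.02, and none was called. Rps19bp1 had -0.48 (adjusted p = 0.19 in limma).

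Between B and L sublines, 1 of 80 ribosomal protein probes was called (1.25%), that of Rpl38 given above, beside 6.4% of all 17362 probes (3.09% higher and 3.31% lower). The median was -0.02, against 0.00257 over all probes. At an unadjusted p under 0.05, 0 members were higher and 7 lower (8.75% of members), beside 24% of all probes. Groups did not overlap for 3 members that were higher and 11 that were lower in B, beside 11.4% and 12.3% of all probes. B and L arrays of the same number deviated together. With the number as a block 3 members were called lower: Rpl38 at -1.04 (adjusted p = 0.039 in limma), Rps19 at -0.91 (0.0323) and Rpl29 at -0.85 (0.0473). B4 has no L array of its number, so the block rests on 3 pairs. Leaving B4 out without a block gave the same differences, and Rps19 was then the only member called (adjusted p = 0.0311 in limma). Without the block, the Rpl38 call was lost when B1, B3, B4, L1, L2 or L3 was left out (adjusted p 0.0813, 0.061, 0.0584, 0.131, 0.177 and 0.0966 in limma). Among members that did not pass, Rps24 had -0.38 at its probe of mean intensity 1740 (adjusted p = 0.144 in limma) and Rpl14 had -0.47 (adjusted p = 0.176 in limma).

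Between L and P sublines, 0 of 80 members were called by limma, and 0 by the random variance test of the methods, beside 0.221% of all 16294 probes (0.19% higher and 0.0307% lower). Groups did not overlap for 2 members that were higher and 7 that were lower in L, beside 9.3% and 10.2% of all probes. At an unadjusted p under 0.05 there were 1 higher and 3 lower (5% of members), beside 14.1% of all probes. The values of these 4 were 0.44 for Rpl22, -0.66 for Rps19, -0.34 for Rps25 and -0.47 for Rps13. The members' median was -0.03, against -0.02 over all probes, and it was -0.15 with median scaling. Of the members, 86.2% lay within 0.25 of no difference, against 67.3% of all probes.

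Genes that make and serve ribosomes were set beside the members in the same fits. Of 48 probes of 29 ribosome biogenesis genes, 33 probes of 21 genes were lower in B than in P and 0 higher. Of all probes tested between B and P, 12.3% were called, with 6.27% of all probes higher in B and 6.02% of all probes lower. The median difference of the list was -0.85, beside -0.06 for the ribosomal proteins and -0.16 for those members at or below 20000. Rrp12, which acts in the export of pre-ribosomal subunits, had -1.71 (SE 0.275, adjusted p = 0.00793 in limma), and Bop1, of the complex that processes large-subunit ribosomal RNA, had -1.41 (SE 0.212, adjusted p = 0.00627 in limma). Against L, 14 probes of 8 genes of the list were lower and 0 higher, with a median of -0.62, beside 6.4% of all probes called. Of 25 probes of 15 chaperone and assembly genes, 8 probes of 6 genes were lower in B than in P and 0 higher. Grwd1, which is known as a chaperone of Rpl3, had -0.95 and -0.84 at 2 probes, and the nuclear importer Ipo7 had -1.09. Against L, 2 of the 25 were lower, those of Eif6 and Ipo5, a share near the 6.4% called over all probes.

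Of the regulators of ribosomal protein mRNAs, Myc had -0.79 (adjusted p = 0.016 in limma), Larp1 -0.68 (adjusted p = 0.0202) and Mtor -0.66 (adjusted p = 0.0445) for B minus P, 3 of 24 probes, with 0 higher, a share near the 12.3% called over all probes. A second Mtor probe had 0.24 and was not called. Against L, 2 of 24 were lower, those of Myc and Mtor, a share near the 6.4% called over all probes. Of 37 probes of 17 other TOP mRNAs, which code for elongation factors and other parts of translation, 1 was lower in B than in P (Eef1d at -0.82, adjusted p = 0.0273 in limma) and 0 higher, with a median of -0.16, and 0 were called against L. No probe of these 4 lists was called between L and P. Whether any list differed from the ribosomal proteins was not tested.

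**Figure D3:**
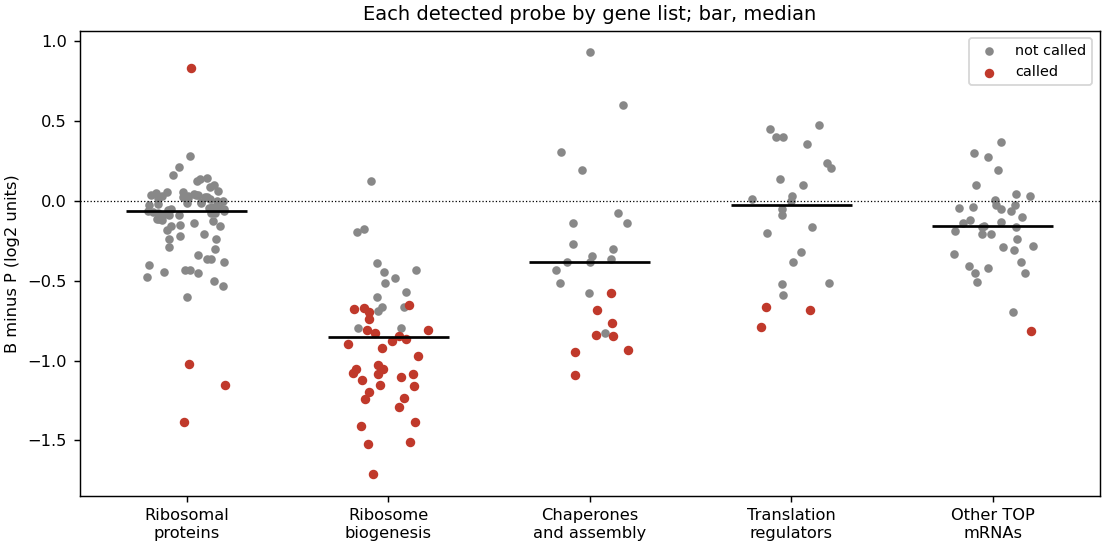
B minus P difference (log2 units) of each detected probe of the ribosomal proteins and 4 gene lists, with bars at the medians and red for probes called in limma. The ribosome biogenesis list is centred at -0.85 and the ribosomal proteins at -0.06, with -0.16 for members at or below 20000 and -0.00494 for those above it.

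The sublines were checked against cell markers. No gene of the lists for macrophages and microglia, astrocytes, endothelium, lung epithelium or lymphocytes was detected on any array. Of these lists, 7 of 8 genes for macrophages and microglia and 2 of 4 for lymphocytes had a probe of 1 symbol, as did every gene of the others. Map2 of the neuron list and Mbp of the oligodendrocyte list were detected on all arrays, and S100a8 of the granulocyte list on some. None of the 3 was called, with B minus P of 0.63 and 0.16 at 2 probes of Map2, -0.26 for Mbp and 0.69 for S100a8. Of 8 markers of mammary carcinoma epithelium, 6 were detected, and Epcam and Krt5 were not. The summed intensity of the epithelial list was 22100 to 38600 in B, 26700 to 43400 in L and 27800 to 41400 in P. The epithelial markers did not move together. Krt14 was lower in B, with -4.75 for B minus P and -5.05 for B minus L, Cdh1 was lower in B than in P (-1.51, adjusted p = 0.0445 in limma) and Krt19 lower in B than in L (-1.89, adjusted p = 0.0473 in limma). Krt8 and Krt18 had 0.47 and 0.45 for B minus P and Krt7 -1.95, none of them called. Pdgfra, of the fibroblast list, was higher in B than in P by 2.40 (adjusted p = 0.0195 in limma). The summed intensity of the fibroblast list, of which Pdgfra and Dcn were the 2 detected genes of 5, was 1160 to 3170 in B, 906 to 1360 in L and 822 to 1000 in P. These moved with the same contrast as the ribosomal protein calls, and their part in them was not tested.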

How the data were processed

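Per the file headers, the authors deposited mean bead intensity values, read with GenomeStudio and not normalized between arrays, and a detection p-value per probe and array. For a second table the authors used lumi (versions: not given in the sources used here) to remove undetected probes, stabilize the variance and apply robust spline normalization, and deposited values close to log2. RNA came from cultured sublines, 1 array each.

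Background correction, with the noise inferred from the detection p-values, and quantile normalization were done with neqc of limma 3.58.1 in R 4.3.3 (offset 16) and gave log2 values. A probe was tested if its detection p was 0.01 or less on at least 1 array of the 2 groups. Groups were compared pairwise with limma, two-sided, probe by probe, on the arrays of the 2 groups, with Benjamini-Hochberg adjustment over all probes tested. Symbols came from GEO's platform annotation: 34885 probes had 1 symbol and 18 several. The random variance test of the methods was an own implementation.

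The members and gene lists were chosen with earlier results of these data known. Named are called members, members fixed for their role, paralogs with their parents, Rps19bp1, genes whose probes disagree, the 5 most and 5 least variable members, the 5 other genes of the most similar profile, and, added after their values were seen, members at an unadjusted p under 0.05, Rpl4, Rpl23 and the list genes given.

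Groups share replicate numbers. The deviations from group means of same-numbered B and L arrays correlated at 0.142 to 0.211 in 3 of 3 pairs, against -0.108 to 0.064 for other pairs, so these numbers were taken as pairing the arrays; the labels do not say so. Same-numbered B and P arrays had -0.116 to 0.04 and L and P arrays -0.105 to 0.089. B4 has no partner of its number, so a block with B rests on 3 pairs. The fits were first tested on simulated data. Of 100 probes changed by 1 log2 unit, limma recovered 52% for B and P, 47% for B and L and 64% for L and P. The number of arrays limits the precision. Start regions came from RefSeq (GRCm38.p6).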

Additional observations from a re-analysis of the deposited data

Results flagged for a closer look

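Among 49 named probes examined, 1 had a B subline far from the others. Rps6 was at 13.87 in B1, against 13.48 to 13.51 in the other B sublines, and the gap was 0.938 of the group's range. Chance flags about 1 in 20 such groups.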

How the results depend on the processing

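No called value changed sign. The B and L median did, as given below, and so did 23, 22 and 30 of the 41, 42 and 46 other named values for B and P, B and L, and L and P under some alternative, none of them called. The gene lists and markers were run in 1 setting. For B and P, 4 members were called, beside 12.3% of all probes. The authors' processed values gave 8 (1 higher and 7 lower), beside 14.4% of all probes. The probe of the highest mean per gene gave 1 (beside 13.2%) and the replicate block 2 (Rps19 and Rpl29, beside 6.07%). Leaving out 1 array gave 0 to 7, with 0 without P1, 1 without P3, 2 without P2 and 7 without B2. The shares of all probes called were then 2.62%, 3.93%, 4.87% and 12.4%. With no filter on dim probes, 4 of 96 members were called for B and P, beside 3.21% of all 45281 probes. For B and L it was 1 of 96, beside 1.74%. In both comparisons Rpl29's brighter probe stood in for Rpl38. The median difference of -0.06 became -0.179 with median scaling, -0.258 without normalization between arrays (-0.07 over all probes; added after seeing the data) and -0.158 without bright members, and -0.0813 to -0.0173 with 1 array left out. For B and L, 1 member was called, beside 6.4% of all probes. Without background correction 2 were called (beside 8.03%), and in the authors' values 4 (7.82%). All 10 arrays in 1 model gave 3 (10.1%), a variance trend 3 (8%) and the replicate block 3 (6.27%). With 1 probe per gene, that of the highest mean, 0 were called (7.01%), with 3 at an unadjusted p under 0.05 in limma. With 1 array left out, 0 to 1 were called, beside 0.912% to 7.22% of all probes. Without B4 the 1 call was Rps19, not Rpl38. The median became -0.0942 without normalization (-0.06 over all probes) and -0.0961 without bright members; it was 0.00165 with the block, and -0.0395 to 0.00165 with 1 array left out. For L and P, 0 members were called under every alternative run, the block included. The share of all probes called was then 0% (with the block, among others) to 1.37% (with a variance trend), so few calls were to be had by any genes. The L and P median became -0.151 with median scaling, -0.135 without normalization and -0.0702 without bright members. With 1 array left out it was -0.0559 (without P3) to -0.0143 (without P1). The causes were not tested. Of the values tabulated for single probes at an unadjusted p under 0.05, 289 kept their side of the threshold, 26 gained a call and 21 lost it. Probes over 20000 and probes just above background limit what small differences can show.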

Other observations

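The probes of other genes whose profile over the 10 arrays correlated most with the members' median profile were those of Mrps22 (r = 0.929), a mitochondrial ribosomal protein, Usp4 (0.927), Naa16 (0.927), Usp46 (0.907) and Zdhhc3 (0.904). They are the highest of all detected probes over 10 arrays that share groups and normalization, and are given as a description. In the 300 bases around the members' starts, from 250 before to 50 after, the letters CCGGAAG, which ETS factors are known to bind, stood on either strand in 37.5% of 64 starts, against 8.86% of all 32851 starts; CTTTC, the other motif counted there, stood in 82.8% against 57.3%, and no binding was measured.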
